A study of Mus musculus with 6 samples.

Results

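The genes described here are 50 that carry out DNA replication or make the deoxynucleotides it consumes, from the origin recognition complex and the MCM2-7 helicase to ribonucleotide reductase and the enzymes that restore DNA methylation and chromatin behind the fork. They were taken by symbol from a list of names, whatever their level, and all 50 were found among the 23424 genes of each of the 6 count tables. All 50 also passed the filter of at least 10 counts summed over the libraries, in a test that covered 14645 protein-coding genes. The question was whether F4/80high and F4/80low tumor-associated macrophages (TAMs) differ in the RNA of this machinery, overall and within each replicate pair.

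Cells of the mouse melanoma line YUMM1.7 were injected intradermally into wild-type female C57Bl/6J mice that were 8 weeks old at tumor induction and were left untreated. On day 21, Live+ CD45+ Lin- CD11b+ cells were sorted into F4/80high and F4/80low fractions, F4/80 being the macrophage surface protein encoded by Adgre1. Each fraction was sorted from pooled tumors in 3 independent experiments, so the 6 libraries hold 3 of each subset and none is from a single animal. The libraries were made from poly-A RNA and counted per gene. A sorted fraction is bulk RNA, in which fewer cycling cells and less of an RNA per cell cannot be told apart.

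DNA replication starts at origins bound by the ORC complex, where Cdc6 and Cdt1 load the MCM2-7 helicase in G1. In S phase, Cdc45 and GINS activate the helicase, primase and polymerase alpha lay down primers, and polymerases delta and epsilon extend them with PCNA as a sliding clamp. Many of these genes are transcribed at the G1 to S transition under E2F factors, and their RNAs are low in cells at rest. In a tissue, macrophage numbers can be kept up by incoming blood monocytes or by division of the macrophages already there.

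Total counts ranged from 16045281 to 43604373, and the libraries of replicate 3, which the study placed in a batch of their own (batch 2), were the shallowest of each subset. Of their counts, 17.1% and 16.1% lay in 3 features (Lars2, Gm23935 and Gm15564), against 0.378% to 0.609% in batch 1. Adgre1, the gene behind the sorting marker, was higher in F4/80high in 3 of 3 pairs, by 0.17, 0.72 and 0.97 on the log2 scale in pairs 1, 2 and 3 (edgeR log2 fold change 0.67, SE 0.30, adjusted p = 0.664). Of the macrophage and monocyte markers (Adgre1, Csf1r, Cd68, Itgam, Ptprc, Fcgr1, Lyz2, Aif1, Cd14 and Mertk), 10 of 10 were detected, with summed levels of 6419 to 24026 CPM in F4/80high and 8138 to 12217 CPM in F4/80low libraries. The ratio of these sums, F4/80high over F4/80low, was 0.761, 2.03 and 0.789 in pairs 1, 2 and 3, and 6 of the 10 had a positive log2 fold change. CPM are counts scaled to a common library size after TMM normalization, and all values below are listed in the order of replicates 1, 2 and 3.

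Most of the 50 genes measured somewhat higher in F4/80high TAMs, and no single gene passed the test. The summed level of the 50 genes came to 1516, 1855 and 1220 CPM for F4/80high and to 1219, 1421 and 917 CPM for F4/80low. F4/80high was the higher member of every pair, by 1.24-, 1.31- and 1.33-fold, while the subsets overlapped, since F4/80low replicate 2 exceeded F4/80high replicate 3. The median log2 fold change was 0.39 over the 50 genes, with a range of -0.16 to 1.29, and 0.01 over all genes tested. By pair, the median was 0.38, 0.40 and 0.49 for these genes and 0.02, -0.0042 and 0.02 for all genes. A positive log2 fold change was seen for 40 of the 50 genes (80%), against 50.8% of all genes. Of the 50 genes, 24 (48%) were higher in F4/80high in 3 of 3 pairs and 0 were lower in 3 of 3, against 16% and 15.9% of all genes. Every F4/80high library lay above every F4/80low library for 4 genes, Mcm4, Pola1, Prim2 and Uhrf1 (8%, against 2.3% of all genes), and the reverse held for 0 (2.9% of all genes).

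**Figure D1:**
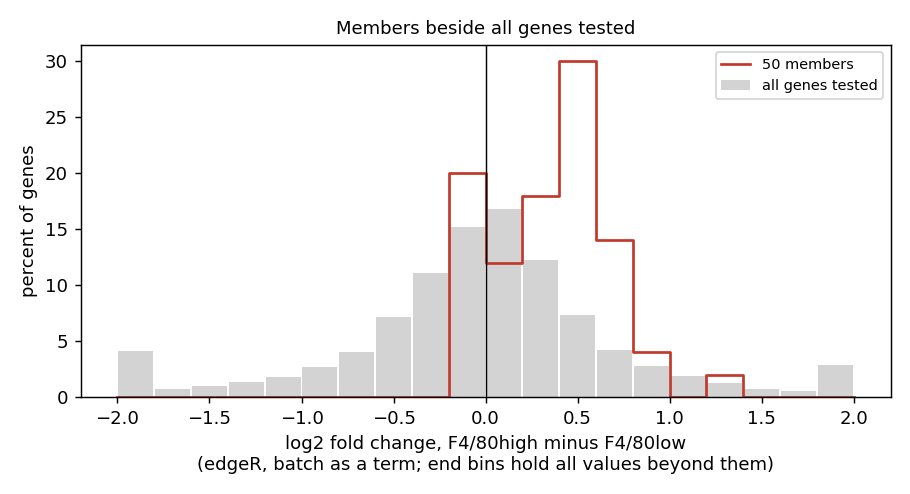
Percent of genes (vertical axis) in bins of the edgeR log2 fold change, F4/80high minus F4/80low (horizontal axis), for the 50 replication and nucleotide synthesis genes (red outline) and for all 14645 genes tested (grey bars); the end bins hold all values beyond them. The red outline runs from -0.16 to 1.29 with a median of 0.39, while the grey bars are centred near 0.01.

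With batch as a term, edgeR's quasi-likelihood test called 0 of the 50 genes and 0% of all genes where a call needs both a p under 0.05 after Benjamini-Hochberg adjustment and a log2 fold change beyond 1 in size. The lowest adjusted p among the 50 was 0.504, for Mcm2. At an unadjusted p under 0.05, the same edgeR fit held 8 of the 50 (16%) as higher in F4/80high, namely Mcm2, Mcm5, Mcm6, Pola1, Prim2, Lig1, Rrm1 and Rrm2, against 3.28% of all genes. It held 0 of the 50 as lower, against 4.32% of all genes. With the replicate number as a block, edgeR called 0 of the 50 and 0.519% of all genes, and the unadjusted p was under 0.05 for 10 of the 50 in the higher direction (3.97% of all genes), with Pola2 and Tk1 added, and for 0 in the lower (5.95%). DESeq2 gave 49 of the genes an adjusted p and called 0 of them, against 1.12% of all genes with batch and 2.68% with the block. Its unadjusted p was under 0.05 and higher in F4/80high for 8 of the 50 with batch (4.08% of all genes) and 9 with the block (4.66%), and in the lower direction for 0 with batch (5.34%) and 0 with the block (7.05%). On the adjusted p alone, DESeq2 passed 0 with batch (1.26% of all genes) and 1 with the block (3.65%), which was Lig1 (adjusted p = 0.0372).

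The count of 8 at an unadjusted p depended on the libraries and on the batch term. In edgeR fits that each left out 1 F4/80high library, the count was 10 when replicate 1 was dropped (5.8% of all genes), 3 when replicate 2 was dropped (3.07%) and 0 when replicate 3 was dropped (1.19%). For the F4/80low libraries it was 2 when replicate 1 was dropped (1.95%), 9 when replicate 2 was dropped (3.29%) and 0 when replicate 3 was dropped (1.24%). With only the batch 1 libraries, and so with fewer samples, it was 0 (1.32%), while the median of the 50 genes was 0.34 and 45 were positive. Dropping either replicate 3 library leaves the other alone in batch 2, where the batch term fits it exactly. Both of those fits thus compare the subsets within batch 1 only, and they are not separate from the fit of batch 1 alone. With all 6 libraries and no batch term the count was also 0 (0.608%), with a median of 0.35 and 43 positive.

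**Figure D2:**
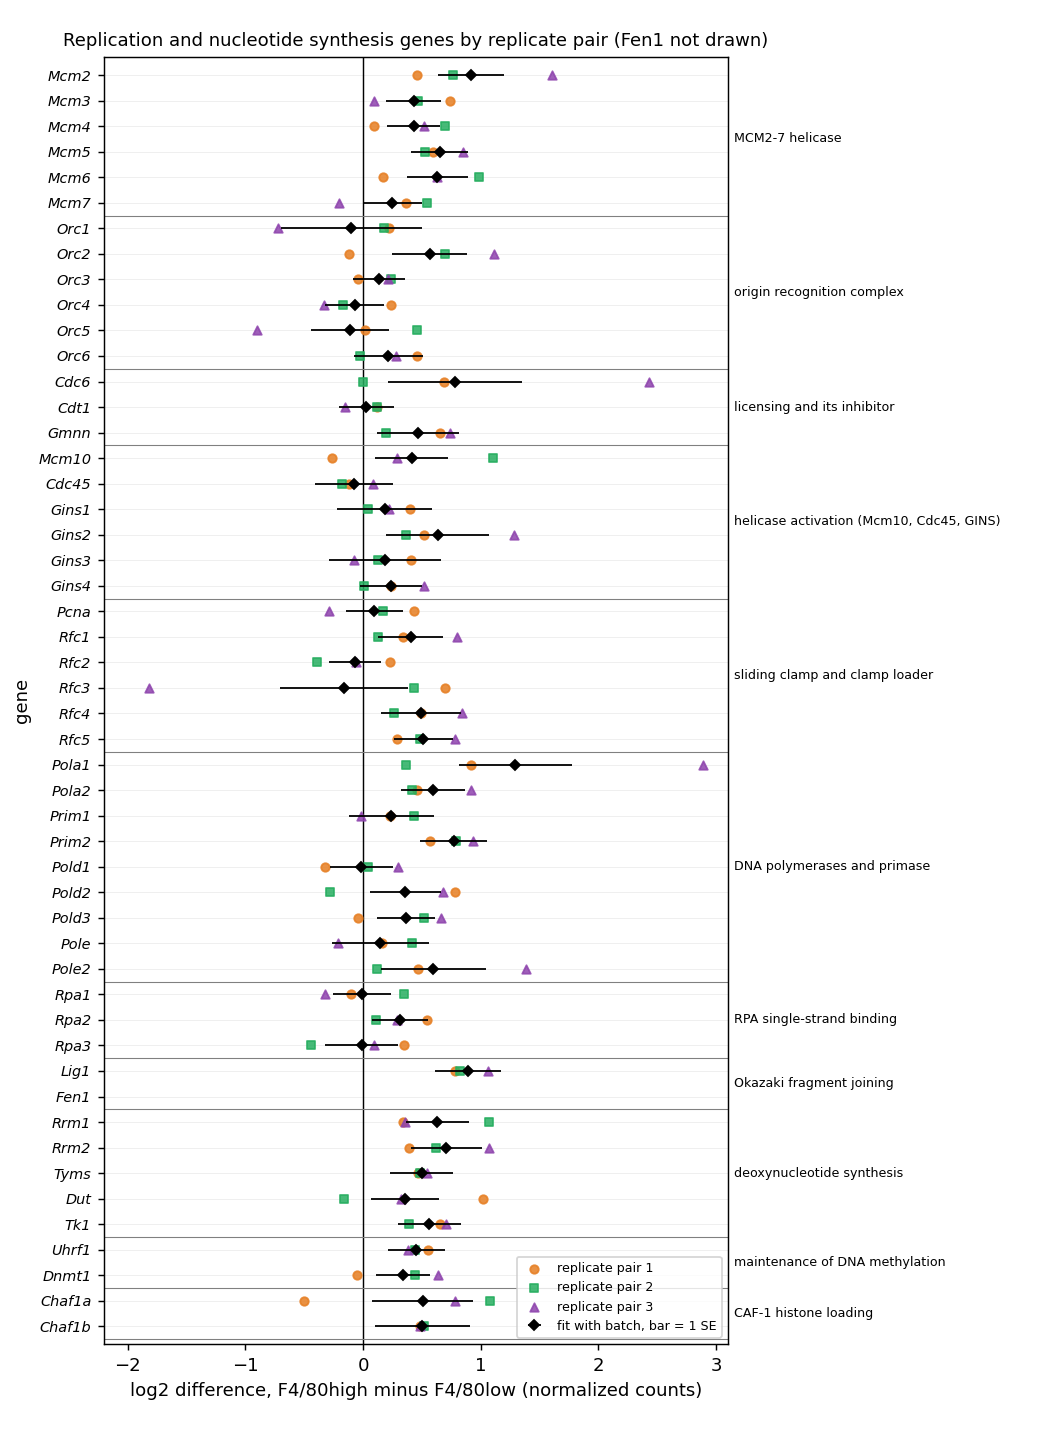
Log2 difference between F4/80high and F4/80low (horizontal axis, normalized counts) for each gene (vertical axis, grouped by role); orange circles, green squares and purple triangles are replicate pairs 1, 2 and 3, and black diamonds with bars are the edgeR estimate with batch as a term ± 1 SE. Most markers lie to the right of 0; the largest single difference is Pola1 in pair 3, at 2.89, and the most negative is Rfc3 in pair 3, at -1.82; Fen1 is not drawn because both replicate 3 libraries held 0 counts.

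Promoters are shown for the 4 genes with the smallest p in the fit with the replicate block, to set the letters of the E2F and CCAAT motifs, which recur in promoters of genes expressed in S phase, beside the values. Each runs 5′ to 3′ on the strand of the gene, from 250 bases before to 50 bases after a RefSeq start on GRCm38.p6, and capitals mark E2F letters (TTTCGCGC, TTTGGCGC, TTTCCCGC or TTTGCCGC) and CCAAT, on either strand. They are Lig1 at chr7:13278576-13278875 on the plus strand, Mcm5 at chr8:75109259-75109558 on the plus strand, Mcm2 at chr6:88898731-88899030 on the minus strand and Rrm2 at chr12:24708004-24708303 on the plus strand.
Lig1: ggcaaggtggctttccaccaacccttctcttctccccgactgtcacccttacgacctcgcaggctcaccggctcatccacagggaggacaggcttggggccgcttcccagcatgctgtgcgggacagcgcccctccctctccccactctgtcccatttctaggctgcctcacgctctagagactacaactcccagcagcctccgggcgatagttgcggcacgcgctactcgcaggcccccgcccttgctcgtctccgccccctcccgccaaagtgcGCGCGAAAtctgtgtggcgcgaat
Mcm5: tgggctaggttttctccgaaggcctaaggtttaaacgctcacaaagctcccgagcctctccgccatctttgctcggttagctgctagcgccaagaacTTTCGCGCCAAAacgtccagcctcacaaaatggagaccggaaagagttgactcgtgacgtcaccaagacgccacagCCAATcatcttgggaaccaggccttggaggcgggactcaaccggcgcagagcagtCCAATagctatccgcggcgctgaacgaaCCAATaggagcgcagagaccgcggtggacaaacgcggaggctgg
Mcm2: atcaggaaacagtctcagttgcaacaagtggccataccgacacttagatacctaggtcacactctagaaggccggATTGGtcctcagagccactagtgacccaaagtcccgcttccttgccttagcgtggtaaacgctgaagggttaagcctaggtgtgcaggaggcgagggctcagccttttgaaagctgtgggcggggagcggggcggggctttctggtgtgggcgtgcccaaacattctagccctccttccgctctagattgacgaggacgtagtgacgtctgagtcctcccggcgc
Rrm2: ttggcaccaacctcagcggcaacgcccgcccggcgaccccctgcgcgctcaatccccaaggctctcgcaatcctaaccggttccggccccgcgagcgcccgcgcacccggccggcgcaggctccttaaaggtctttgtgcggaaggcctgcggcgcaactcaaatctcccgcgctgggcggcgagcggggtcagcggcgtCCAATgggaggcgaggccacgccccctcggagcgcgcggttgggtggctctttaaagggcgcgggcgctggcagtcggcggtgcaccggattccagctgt
The Lig1 window held 1 match to the E2F letters and that of Mcm5 held 2, which overlap on opposite strands in the run of 12 capitals. CCAAT was found 3 times in the Mcm5 window, once on the opposite strand in that of Mcm2, and once in that of Rrm2. For Lig1 the table lists 3 starts, and the one shown has the most GENCODE M21 transcript starts within 50 bases, while no M21 transcript of Mcm5 starts within 50 bases of the RefSeq start.

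Of the 50 genes, 42 had a promoter in the RefSeq table. The E2F letters occurred in 17 of the 42 (40.5%), among them Mcm3, Mcm5, Mcm6, Mcm7, Cdc6, Cdt1, Pola1, Lig1, Uhrf1 and Dnmt1, against 2.6% of 27025 genes with windows of the same length. CCAAT occurred in 26 of the 42 (61.9%), against 41.1% of genes, and TTTGAA, the core of the CHR element of genes expressed late in the cycle, in 6 (14.3%), against 20.2%. The median log2 fold change was 0.37 over the 17 genes with E2F letters and 0.41 over the 25 without. F4/80high was the higher in 3 of 3 pairs for 7 of the 17 and 11 of the 25. A match of letters is a description of the sequence and not a site, and its absence says only that these letters are not in this window.

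Among the 6 subunits of the MCM2-7 helicase, which unwinds DNA at the fork, all 6 had a positive log2 fold change, with a median of 0.53, and 5 were higher in F4/80high in 3 of 3 pairs. Mcm2 (chromosome 6, 88883474-88898780) measured 46.4, 57.7 and 20.4 CPM in F4/80high and 33.7, 33.9 and 6.73 CPM in F4/80low libraries. Both replicate 3 libraries were low, so the subsets overlapped, while F4/80high was higher in each pair. The log2 fold change of Mcm2 was 0.92, with an SE of 0.28 and an edgeR adjusted p of 0.504. Mcm5 (chromosome 8, 75109569-75128439) measured 54.2, 69.0 and 34.9 CPM in F4/80high and 35.8, 47.8 and 19.4 CPM in F4/80low libraries. Here too replicate 3 was the lowest of each subset, and the pairs differed by similar amounts, 0.60, 0.53 and 0.85 (log2 fold change 0.65, SE 0.24, edgeR adjusted p = 0.596). Mcm6 spread more, with 85.1, 149.6 and 32.5 CPM in F4/80high against 75.8, 75.5 and 21.1 CPM in F4/80low libraries, and F4/80high replicate 2 stood above the other 5. Mcm4 was the only subunit whose subsets did not overlap, at 59.8, 70.2 and 66.2 CPM against 56.0, 43.2 and 46.3 CPM, with a log2 fold change of 0.43 (SE 0.22, edgeR adjusted p = 0.696). Mcm3 and Mcm7 had log2 fold changes of 0.43 and 0.25, and Mcm7 was the subunit that was lower in F4/80high in a pair, by -0.21 in pair 3. The 6 subunits act as a ring with equal stoichiometry, and their summed level was 357, 472 and 216 CPM in F4/80high and 276, 289 and 159 CPM in F4/80low libraries, a ratio of 1.29, 1.63 and 1.36 by pair.

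**Figure D3:**
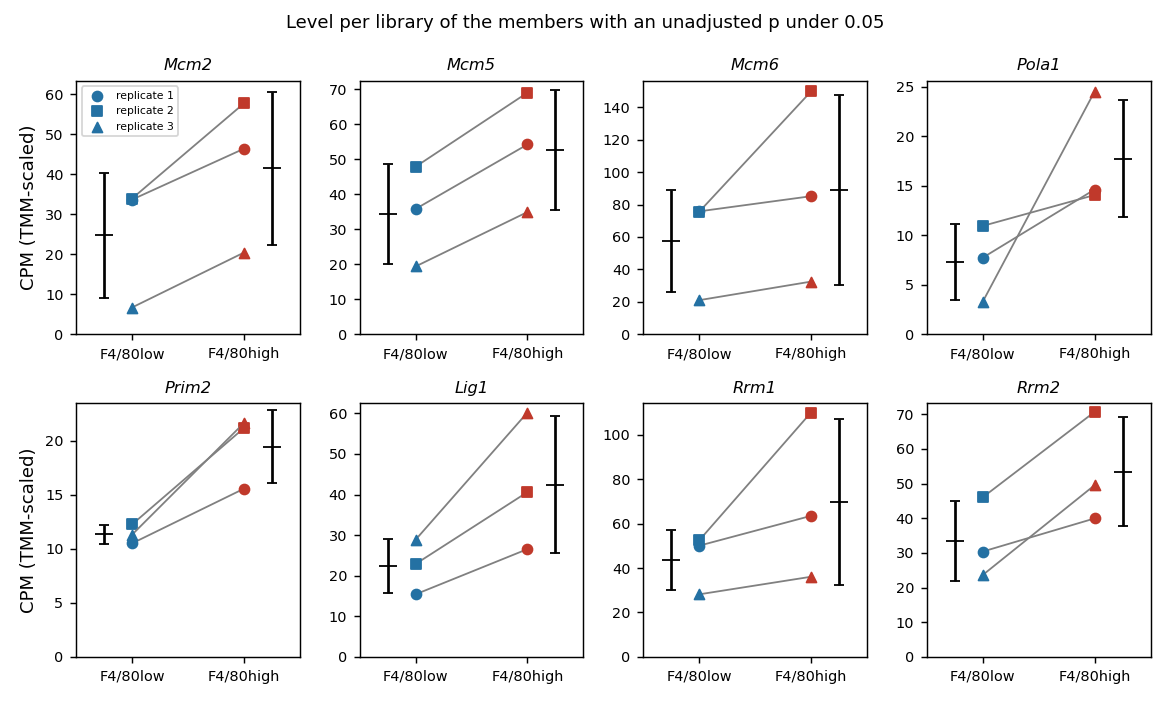
TMM-scaled CPM (vertical axes, from 0) of the 8 genes with an unadjusted p under 0.05 in the edgeR fit with batch, in F4/80low (blue) and F4/80high (red) libraries; circles, squares and triangles are replicates 1, 2 and 3, grey lines join the libraries of a pair, and the black marks are the mean ± SD (n = 3). Every line slopes up toward F4/80high, and only Pola1 and Prim2 have all 3 red points above all 3 blue ones.

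The origin recognition complex, whose 6 subunits mark origins through the cycle and some of which are expressed in resting cells, had a median log2 fold change of 0.03, with 3 of 6 genes positive and 0 higher in 3 of 3 pairs. Orc2 (chromosome 1, 58462771-58505109) measured 14.2, 21.3 and 20.2 CPM in F4/80high and 15.4, 13.2 and 9.36 CPM in F4/80low libraries. F4/80high replicate 1 was the low one of its subset, under F4/80low replicate 1, and the log2 fold change came to 0.57 (SE 0.32, edgeR adjusted p = 0.699). Part of the Orc2 count is uncertain, since 29.8% of its exon bases are shared with Nif3l1 on the opposite strand and the use of strand in counting is not given. Orc6 (chromosome 8, 85299632-85308278) measured 16.7, 19.2 and 16.8 CPM in F4/80high and 12.2, 19.5 and 13.8 CPM in F4/80low libraries, which overlapped (log2 fold change 0.21, SE 0.29, edgeR adjusted p = 0.893). Orc1, the subunit that is made and degraded with the cell cycle, was scarce at 1.28 to 3.46 CPM in F4/80high and 1.13 to 5.70 CPM in F4/80low libraries. Orc3, Orc4 and Orc5 had log2 fold changes of 0.14, -0.07 and -0.11.

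Of the loading factors, Cdc6 and Cdt1 bring the helicase to origins, and Gmnn encodes geminin, which inhibits Cdt1 in S and G2 phase. Cdc6 (chromosome 11, 98907801-98923940) measured 6.26, 6.82 and 1.84 CPM in F4/80high and 3.89, 6.83 and 0.342 CPM in F4/80low libraries. Its replicate 3 libraries held only 17 and 3 counts, and the pair differences were 0.69, -0.0033 and 2.42 (log2 fold change 0.78, SE 0.57, edgeR adjusted p = 0.752). Gmnn (chromosome 13, 24751845-24761923) measured 20.3, 28.6 and 4.0 CPM in F4/80high and 12.9, 25.0 and 2.40 CPM in F4/80low libraries. It was higher in F4/80high in each pair but overlapped across pairs, with a log2 fold change of 0.47 (SE 0.35, edgeR adjusted p = 0.758). Cdt1 was nearly level, at 22.9 to 35.7 CPM in all 6 libraries (log2 fold change 0.03, SE 0.24, edgeR adjusted p = 0.988).

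The helicase is switched on by Cdc45 and the 4 GINS proteins, with Mcm10 as a further factor of the active fork. Gins2 (chromosome 8, 120578633-120589304) measured 8.99, 14.7 and 1.95 CPM in F4/80high and 6.28, 11.4 and 0.799 CPM in F4/80low libraries. Replicate 3 was again the low one, and 67.3% of the exon bases of Gins2 are shared with Gse1 on the opposite strand, so its count is uncertain (log2 fold change 0.63, SE 0.44, edgeR adjusted p = 0.741). Mcm10 (chromosome 2, 4989714-5012791) measured 4.95, 9.44 and 65.0 CPM in F4/80high and 5.95, 4.40 and 53.2 CPM in F4/80low libraries. In this gene both replicate 3 libraries were high, and between the subsets the pairs disagreed, at -0.27, 1.10 and 0.29 (log2 fold change 0.41, SE 0.31, edgeR adjusted p = 0.762). Gins1, Gins3 and Gins4 lay between 0.19 and 0.23 in log2 fold change, and Cdc45 was at -0.08 (edgeR adjusted p = 0.971), with 5.19 to 9.69 CPM in F4/80high and 4.91 to 10.96 CPM in F4/80low libraries.

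Pcna encodes the sliding clamp and the Rfc genes its loader. Per length, Pcna was the most abundant of the 50, at a mean level of 43.7 CPM per kb over the 6 libraries, and it measured 122.7, 141.8 and 66.5 CPM in F4/80high and 91.0, 125.9 and 81.5 CPM in F4/80low libraries. It was higher in pairs 1 and 2 and lower in pair 3 (log2 fold change 0.10, SE 0.24, edgeR adjusted p = 0.948). Rfc5 (chromosome 5, 117378103-117389047) measured 31.4, 36.8 and 17.3 CPM in F4/80high and 25.8, 26.3 and 10.04 CPM in F4/80low libraries. All 3 pairs were higher in F4/80high, and the subsets overlapped through replicate 3 (log2 fold change 0.51, SE 0.25, edgeR adjusted p = 0.686). Rfc1, the large subunit (chromosome 5, 65261850-65335670), measured 36.1, 48.9 and 80.0 CPM in F4/80high and 28.5, 44.9 and 46.0 CPM in F4/80low libraries. F4/80high replicate 3 stood above the other 5, and the log2 fold change came to 0.41 (SE 0.28, edgeR adjusted p = 0.737). Rfc2 and Rfc4 had log2 fold changes of -0.07 and 0.49. Rfc3 had the lowest of the 50, at -0.16 (SE 0.54, edgeR adjusted p = 0.961), set by pair 3, where 29 and 97 counts were read in F4/80high and F4/80low.

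The 9 genes of the DNA polymerases and primase had a median log2 fold change of 0.37, and 8 were positive. Pola1, the catalytic subunit of polymerase alpha (chromosome X, 93304767-93632155), measured 14.6, 14.1 and 24.5 CPM in F4/80high and 7.76, 10.96 and 3.31 CPM in F4/80low libraries. Each F4/80high library lay above each F4/80low one, with the largest gap in pair 3, and the log2 fold change of 1.29 was the largest of the 50 (SE 0.48, edgeR adjusted p = 0.593). Without replicate 3 it was smaller, at 0.62 in batch 1. Prim2, the large primase subunit (chromosome 1, 33453810-33669795), measured 15.6, 21.2 and 21.6 CPM in F4/80high and 10.5, 12.2 and 11.3 CPM in F4/80low libraries. The F4/80low values were tight and the subsets did not overlap, with pair differences of 0.57, 0.79 and 0.94 (log2 fold change 0.77, SE 0.29, edgeR adjusted p = 0.592). Pola2, the partner of Pola1, was higher in 3 of 3 pairs as well, at 0.59 (SE 0.27, edgeR adjusted p = 0.681), and Prim1, the catalytic primase subunit, was at 0.24. The subunits of polymerase delta measured -0.02 (Pold1), 0.36 (Pold2) and 0.37 (Pold3), and those of polymerase epsilon 0.14 (Pole) and 0.60 (Pole2). Of these 5, Pole2 was the gene that was higher in all 3 pairs.

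RPA coats the single strands that the helicase exposes, and its subunits showed little difference, with a median of -0.01. Rpa2 (chromosome 4, 132768332-132778752) measured 35.3, 29.4 and 23.4 CPM in F4/80high and 24.3, 27.3 and 19.2 CPM in F4/80low libraries. It was higher in F4/80high in each pair, with overlap between pairs (log2 fold change 0.31, SE 0.24, edgeR adjusted p = 0.770). Rpa1 (chromosome 11, 75298166-75348324) measured 35.3, 45.4 and 18.2 CPM in F4/80high and 37.8, 35.6 and 22.7 CPM in F4/80low libraries, with no common direction among the pairs (log2 fold change -0.01, SE 0.25, edgeR adjusted p = 0.997). Rpa3 was also at -0.01.

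Lig1 encodes the ligase that seals Okazaki fragments, and it was the gene with the smallest p of the 50 in the fit with the replicate block. Lig1 (chromosome 7, 13277283-13311433) measured 26.5, 40.6 and 60.2 CPM in F4/80high and 15.4, 22.9 and 28.9 CPM in F4/80low libraries. Levels were highest in replicate 3 of both subsets and F4/80low replicate 3 exceeded F4/80high replicate 1, while the pairs differed by nearly the same amount, 0.78, 0.83 and 1.06. With batch as a term the log2 fold change of Lig1 was 0.89, with an SE of 0.28 and an edgeR adjusted p of 0.524, which was 0.182 with the block. Over the 21 alternatives its log2 fold change ran from 0.69 to 1.10 and its adjusted p from 0.0372 to 1. Fen1, the flap endonuclease of the same step (chromosome 19, 10199132-10204169), had 3, 14 and 0 counts in F4/80high and 7, 8 and 0 counts in F4/80low libraries. With 84.2% of its exon bases shared with Tmem258 and Gm10143 on the opposite strand, these counts cannot be read as its level.

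The 5 genes of deoxynucleotide synthesis had the highest median of any group of 3 or more, 0.56, and all 5 were positive. Rrm1 and Rrm2 encode the large and small subunits of ribonucleotide reductase, the enzyme that makes deoxynucleotides from ribonucleotides. Rrm1 (chromosome 7, 102441695-102469771) measured 63.5, 110.1 and 36.1 CPM in F4/80high and 50.1, 52.5 and 28.2 CPM in F4/80low libraries. F4/80high replicate 2 stood above the rest and replicate 3 was low in both subsets (log2 fold change 0.63, SE 0.27, edgeR adjusted p = 0.639). Rrm2 (chromosome 12, 24708241-24714146) measured 39.9, 70.7 and 49.5 CPM in F4/80high and 30.4, 46.0 and 23.6 CPM in F4/80low libraries. The overlap was between F4/80low replicate 2 and F4/80high replicate 1, and the pairs differed by 0.39, 0.62 and 1.07 (log2 fold change 0.71, SE 0.30, edgeR adjusted p = 0.646). Tyms and Tk1, which make thymidylate de novo and by salvage, had log2 fold changes of 0.50 and 0.56 and were higher in 3 of 3 pairs. Dut, which removes dUTP, was at 0.36 and was lower in pair 2. The summed level of the 5 was 189.7, 276 and 173 CPM in F4/80high and 132, 179.8 and 113 CPM in F4/80low libraries, with pair ratios of 1.43, 1.54 and 1.53.

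Uhrf1 and Dnmt1 copy DNA methylation onto the new strand. Uhrf1 (chromosome 17, 56303321-56323486) measured 31.4, 37.5 and 39.5 CPM in F4/80high and 21.5, 27.6 and 30.3 CPM in F4/80low libraries. The subsets did not overlap, by a margin of about 1 CPM, and the log2 fold change came to 0.45 (SE 0.24, edgeR adjusted p = 0.696). Dnmt1 (chromosome 9, 20907209-20959888) measured 54.9, 65.5 and 70.4 CPM in F4/80high and 56.8, 48.2 and 45.2 CPM in F4/80low libraries, with the first pair in the other direction by -0.05 (log2 fold change 0.34, SE 0.23, edgeR adjusted p = 0.735). Chaf1a and Chaf1b are subunits of CAF-1, which loads histones onto new DNA. Chaf1a (chromosome 17, 56040439-56072289) measured 7.04, 16.1 and 3.14 CPM in F4/80high and 9.97, 7.65 and 1.83 CPM in F4/80low libraries. Of its exon bases in GENCODE M21, 52.5% are shared with Ubxn6 on the opposite strand. Those exons span 8854 bases against a deposited length of 3308, so the share among the bases counted is not known. Chaf1b (chromosome 16, 93883901-93906115) measured 12.8, 25.9 and 4.0 CPM in F4/80high and 9.16, 18.1 and 2.85 CPM in F4/80low libraries. Pair 1 went the other way for Chaf1a, by -0.50, while the pairs of Chaf1b lay close together at 0.48, 0.52 and 0.49. Their log2 fold changes were 0.51 (SE 0.43, edgeR adjusted p = 0.790) for Chaf1a and 0.50 (SE 0.40, edgeR adjusted p = 0.787) for Chaf1b.

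Levels differed far more between genes than between the subsets. Per length, after Pcna came Mcm4, Mcm6, Rrm2 and Gins4, with means of 15.9, 15.7, 15.6 and 15.2 CPM per kb over the 6 libraries, which do not differ beyond their spread. At the low end, Cdc6, Orc1 and Pole measured 0.828, 0.719 and 0.483 CPM per kb and Fen1 0.0496 CPM per kb. Lengths are those of the deposited tables, which equal the merged exon length of GENCODE M21 for 33 of the 50 genes.

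**Figure D4:**
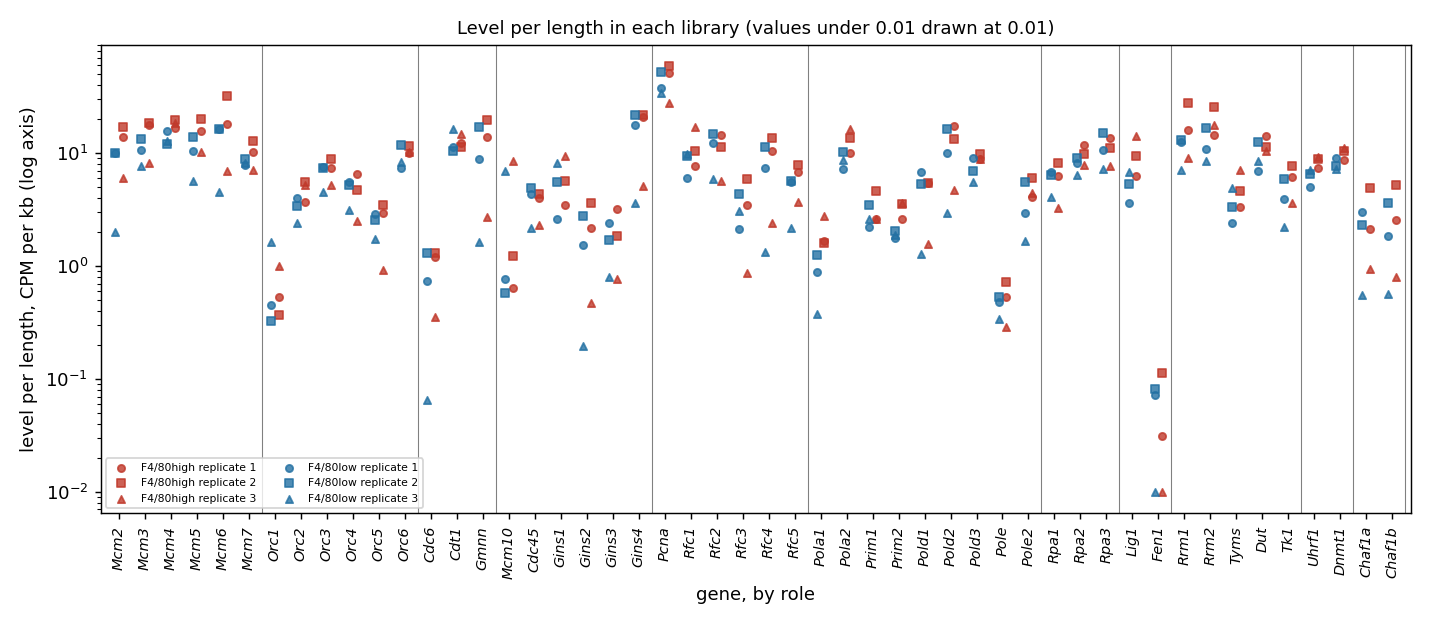
Level per length, in CPM per kb on a log axis, of each of the 50 genes (horizontal axis, in the order of their roles) in the 3 F4/80high (red) and 3 F4/80low (blue) libraries; circles, squares and triangles are replicates 1, 2 and 3, and values of 0 are drawn at 0.01. Pcna lies highest and Fen1 lowest, and the triangles of replicate 3 stand apart in both colors for many genes, as in Gmnn, Gins2 and Mcm10.

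More genes differed by batch than by subset, among the 50 and over all genes alike. The batch term, which contrasts both replicate 3 libraries with the other 4, had an edgeR adjusted p under 0.05 for 24 of the 50 (48%, against 42.6% of all genes). Of these, 22 fell in batch 2 (44%, against 22.7% of all genes) and 2 rose, Mcm10 and Tyms (4%, against 20%). Gmnn fell 6.90-fold (edgeR adjusted p = 0.000882), Mcm6 3.60-fold (adjusted p = 0.00116) and Mcm2 3.46-fold (adjusted p = 0.00199), while Mcm10 rose 9.62-fold (adjusted p = 6.53e-05) and Tyms 1.75-fold (adjusted p = 0.042). Within the helicase, Mcm2 and Mcm6 fell while Mcm4 differed by 1.03-fold, with an edgeR adjusted p of 0.920. The median batch difference was -0.80 over the 50 genes and -0.35 over all genes on the log2 scale. With 1 library of each subset in batch 2, the batch and the experiment cannot be told apart.

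Outside the 50 genes, 105 more of the same pathways were followed, of which 104 were tested. edgeR with batch called 0 of the 104 and 0% of all genes, and edgeR with the block called 0 of the 104 and 0.519% of all genes. At an unadjusted p under 0.05 the edgeR fit with batch held 8 of the 104 as higher in F4/80high (7.69%, against 3.28% of all genes) and 4 as lower (3.85%, against 4.32%). Their median log2 fold change was 0.24, with 0.17 for G1/S control, 0.44 for origin firing, 0.24 for other fork factors and 0.22 for other genes of nucleotide synthesis. DESeq2 with the block called 2 of 102 (1.96%, against 2.68% of all genes), Cdc7 and Samhd1.

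Cdc7, the kinase that fires origins, measured 9.09, 6.47 and 100.5 CPM in F4/80high and 5.05, 2.16 and 29.3 CPM in F4/80low libraries. It was high in replicate 3 of both subsets and higher in F4/80high in each pair (log2 fold change 1.33, SE 0.36, edgeR adjusted p = 0.470 with batch and 0.0858 with the block, DESeq2 adjusted p = 0.000927 with the block). Samhd1, which degrades deoxynucleotides and so acts against ribonucleotide reductase, measured 475, 263 and 520 CPM in F4/80high and 754, 713 and 998 CPM in F4/80low libraries. Every F4/80low library lay above every F4/80high library (log2 fold change -0.98, SE 0.26, edgeR adjusted p = 0.466 with batch and 0.0821 with the block, DESeq2 adjusted p = 0.000635 with the block). This held for 2 of the 36 genes of its list, Samhd1 and Mthfd1l (5.56%, against 2.9% of all genes). In that list Rrm2b, Samhd1, Mthfd1l and Tk2 were lower in 3 of 3 pairs (11.1%, against 15.9% of all genes), while 11 were higher (30.6%, against 16%). Of the other genes of origin firing, Ticrr and Dbf4, the activator of Cdc7, had log2 fold changes of 1.28 and 0.47, each higher in 3 of 3 pairs, while Mcmbp and Donson lay at -0.09 and -0.02.

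Within G1/S control, Ccne1, the cyclin E1 that drives entry into S phase, measured 9.01, 14.5 and 21.7 CPM in F4/80high and 5.30, 9.88 and 2.85 CPM in F4/80low libraries, with a log2 fold change of 1.31 (SE 0.54, edgeR adjusted p = 0.632). Myc and Ccne2 had log2 fold changes of 0.47 and 0.67. On the other side, the inhibitors of cyclin-dependent kinases Cdkn2d and Cdkn1a were at -0.79 and -0.42 and cyclin D3 (Ccnd3) at -0.68, each lower in 3 of 3 pairs, with edgeR adjusted p-values of 0.562, 0.699 and 0.621. Other such inhibitors were mixed, with Cdkn1b and Cdkn2b at -0.31 (SE 0.35) and -0.86 (SE 1.05) and Cdkn1c and the scarce Cdkn2a at 0.46 (SE 0.95) and 1.00 (SE 1.82). The pairs of Cdkn2b disagreed, at -0.18, 0.93 and -4.83, the last from 2 counts in F4/80high and 54 in F4/80low. Cdkn2c was at 0.40 and higher in 3 of 3 pairs. Of the 31 genes of this list, 9 were higher in 3 of 3 pairs (29%, against 16% of all genes). The reverse held for 3 (9.68%, against 15.9%). Among fork factors, Chek1, Clspn and Rad51ap1, which act when forks stall or break, had log2 fold changes of 1.08, 1.11 and 1.21, and the nuclease Dna2 was at -0.96 (edgeR adjusted p = 0.524). The topoisomerases were mixed, with Top1 and Top2b at -0.12 (SE 0.22) and -0.17 (SE 0.23) and Top2a at 0.24 (SE 0.24). In nucleotide synthesis, Prps2, Impdh1 and Umps, of purine and pyrimidine synthesis, had log2 fold changes of 0.94, 0.86 and 0.54, and Ctps2 and Mthfd1l were at -0.70 and -0.40. None of these genes passed the edgeR test with batch or with the block.

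Mki67, which is expressed in all phases of division, measured 48.6, 77.4 and 86.5 CPM in F4/80high and 46.8, 72.4 and 45.3 CPM in F4/80low libraries. Pairs 1 and 2 were nearly level, at 0.06 and 0.10, and pair 3 was at 0.93, with a log2 fold change of 0.36 (SE 0.30, edgeR adjusted p = 0.790). The medians of the 50 genes in the same 3 pairs were 0.38, 0.40 and 0.49.

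Markers of other cell types also differed between the fractions, and their part in these values was not tested. Of the T and NK cell markers (Cd3e, Cd3d, Cd3g, Cd2, Cd8a, Cd4, Trac, Ncr1, Klrb1c, Gzmb and Prf1), 10 of 10 tested were higher in F4/80high, 2 with an unadjusted p under 0.05, with a median log2 fold change of 0.87. Their summed level was 300 to 1754 CPM in F4/80high and 141 to 789 CPM in F4/80low libraries. By pair, the ratio of these sums was 2.74, 0.649 and 2.12. The B and plasma cell list, summed, ran from 10.8 to 139.6 CPM in F4/80high and 6.05 to 128.7 CPM in F4/80low libraries, with pair ratios of 1.70, 0.462 and 1.79. Neutrophil markers were lower in F4/80high in 9 of 9, at 691 to 1974 CPM summed against 1428 to 4356 CPM, with pair ratios of 0.453, 0.290 and 0.484, and eosinophil markers in 7 of 7, at 89.97 to 177 CPM against 252 to 603 CPM. Of the melanoma list (Mitf, Dct, Tyr, Tyrp1, Pmel, Mlana, Sox10 and Kit), 5 genes were analysed here, with Mlana at 3 counts or fewer in every library. They summed to 23.6 to 259 CPM in F4/80high and 20.1 to 490 CPM in F4/80low libraries, with pair ratios of 0.724, 1.17 and 0.530. Of the 4 tested, 3 had a positive log2 fold change. Kit is also in the mast cell and basophil list, so the sum is not specific to melanoma cells. The median log2 fold changes of the dendritic cell, mast cell and basophil, fibroblast, endothelial and erythroid lists lay between -0.97 and -0.52, and that of the keratinocyte list, with 1 gene tested, was 0.61.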

How the data were processed

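The samples were 3 RNA-seq libraries of each TAM subset. The authors deposited a table per library with the raw read count of each gene, its length and its biotype, with no normalization. The study states only that a sequencing center's standard pipeline was used; the aligner, counting tool, strand and annotation are not given in the sources used here. Of the gene IDs, 99.4% were found in GENCODE M21 (GRCm38), which gave the biotype and the coordinates printed.

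The test was the quasi-likelihood test of edgeR 4.0.16 in R 4.3.3 (TMM, terms for batch and subset) on protein-coding genes that reached 10 counts over all libraries, and p-values were adjusted over all 14645 genes. The study's DESeq2 test (version 1.42.0) was an alternative. Batch follows the study's PCA plot, with replicate 3 of both subsets as batch 2. Level per length is CPM per kb of the deposited length, and pair differences are log2 ratios of CPM. Same-numbered libraries were taken to come from the same experiment, which the sample labels do not state, and the fit with the replicate block was run as an alternative. Over 10072 genes the correlation of their deviations from the mean of their subset was 0.745, 0.729 and 0.907. These deviations include the difference between batches, so the correlations cannot tell pairing apart from batch. In the fit with batch, p-values rest on the spread between libraries after the batch and subset terms, with the subsets of an experiment taken as independent. In the fit with the block, they rest on the spread of the subset difference between experiments. No libraries were copies of each other. The steps were tested on simulated data.

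The 50 genes, the 105 pathway genes, the marker lists and the tests were chosen with earlier results of these data known. Genes given in full are the 2 with the smallest p in each role, any called or lower in 3 of 3 pairs, and, of each pathway list, up to 3 with the smallest p in each direction and any called. Mcm4, Mcm6, Pcna, Cdt1 and others outside that rule were named after their values were seen. Promoters come from the RefSeq table (GRCm38.p6). The alternatives were other tools, size factors, count filters, gene sets, thresholds and batch terms, and leaving out libraries or pairs. The deposited biotype in place of that of M21 was added after the data were seen.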

Additional observations from a re-analysis of the deposited data

How the results depend on the processing

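The edgeR fit with batch called 0 of 14645 genes, of which 1113 had an unadjusted p under 0.05. Depth limits the genes with few counts, such as Cdc6 and Fen1 in replicate 3. The 50 replication genes had 0 calls under each of the 21 alternatives (the biotype of the deposited tables, added after the data were seen, among them) and a positive median log2 fold change in each. Calls over all genes were 148 by DESeq2 with batch, 354 by DESeq2 with the replicate block and 76 by edgeR with the block, with or without the fold threshold. Leaving out libraries or pairs gave 0 to 315 calls, with 57 without F4/80high replicate 1 and, under the block, 315, 35 and 22 without replicates 1, 2 and 3. Among pathway genes, 2 were called by DESeq2 with the block, and 0 to 3 when libraries or pairs were left out, the 3 being Cdc7, Samhd1 and Impdh1 under the block without replicate 1; the block changed no other call. The median of the 50 genes ran from 0.29 without F4/80low replicate 1 to 0.48 without F4/80high replicate 1, with 0.30 without F4/80high replicate 2, 0.46 without F4/80low replicate 2 and 0.33 under the block without replicate 3. Direction reversed in 58 of 1046 values, in 16 genes that were not called, and the cause was not tested. The values of batch 1 alone and of the fits without either replicate 3 library are repeats of the same comparison. In batch 1 alone, the log2 fold change was 0.20 for Orc1, 0.054 for Orc4, 0.24 for Orc5, 0.53 for Rfc3 and 0.14 for Rpa1. With no batch term, the log2 fold change was 0.035 for Orc5, 0.10 for Rfc3 and 0.041 for Rpa1. With all biotypes, the log2 fold change was 0.0062 for Pold1, 0.013 for Rpa1 and 0.0074 for Rpa3. With library size alone, the log2 fold change was 0.029 for Pold1, 0.029 for Rpa1 and 0.033 for Rpa3. By DESeq2 with the block, the log2 fold change was 0.00083 for Rpa3. Under the block without replicate 1, the log2 fold change was -0.016 for Cdt1, -0.057 for Pcna, 0.16 for Pold1, 0.025 for Rpa1 and 0.44 for Fen1. Under the block without replicate 2, the log2 fold change was -0.053 for Cdt1, -0.021 for Mcm10, 0.052 for Rfc2, -0.052 for Pole and 0.19 for Rpa3. Under the block without replicate 3, the log2 fold change was 0.20 for Orc1, 0.033 for Orc4, 0.24 for Orc5, 0.57 for Rfc3 and 0.13 for Rpa1. Leaving out each library in turn gave -0.35 to 0.20 for Orc1, -0.26 to 0.052 for Orc4, -0.31 to 0.24 for Orc5, -0.032 to 0.12 for Cdt1, 0.058 to 0.62 for Mcm10, -0.069 to 0.55 for Gins1, -0.12 to 0.35 for Gins3, -0.086 to 0.29 for Pcna, -0.18 to 0.0064 for Rfc2, -0.69 to 0.53 for Rfc3, -0.11 to 0.42 for Prim1, -0.15 to 0.14 for Pold1, -0.068 to 0.30 for Pole, -0.20 to 0.14 for Rpa1, -0.14 to 0.16 for Rpa3 and -1.22 to 0.52 for Fen1.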
